A study of Mus musculus with 50 samples.

Results

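Colon RNA of mice with chemically induced colitis that had received A1007 at the lowest dose of the study, 10 mpk, was compared with colon RNA of sham mice. The members were chosen by label: the 10 libraries titled as TNBS with A1007 at 10 mpk and the 10 titled as sham, 20 of the 50 libraries of the series. Per the series text A1007 activates the aryl hydrocarbon receptor (AhR), and the tissue is the distal colon. All libraries were labelled BALBC in genotype, colon in tissue and 1 in batch, and were made from poly(A) RNA. The 10 libraries of the TNBS vehicle group are set beside them where a value is needed for TNBS without the compound. The 10 mpk and sham groups differ in both TNBS and A1007, and no group with A1007 but without TNBS was analysed here, so the parts of the compound and of TNBS in a difference from sham cannot be told apart. Age, sex, the time of tissue collection and what sham mice received are not known here, and the dose is printed in the unit of the labels.

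TNBS, trinitrobenzene sulfonic acid, is a hapten: it binds proteins of the colon wall and so provokes an immune attack, with damage to the epithelium, entry of myeloid cells and deposition of matrix. AhR is a transcription factor that is held in the cytoplasm by chaperones until a ligand binds, and that then pairs with ARNT and induces genes such as Cyp1a1, Cyp1b1 and its own repressor Ahrr. In the gut it is known for roles in epithelial and lymphoid cells at the barrier.

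The promoters of 8 members are shown because the results below turn on 3 groups of genes: clock output genes, matrix metalloproteinases and AhR targets. Each run is the 170 bases before the RefSeq transcript start on GRCm38.p6, read 5′ to 3′ on the strand of the gene. Capitals mark a motif that was searched on both strands. For the clock this is the E-box CACGTG, the site of CLOCK and BMAL1, for the metalloproteinases the AP-1 site TGAGTCA or TGACTCA, bound by FOS and JUN proteins, and for AhR targets the core GCGTG, which reads CACGC on the other strand. Ciart lies at chr3:95882229-95882398 and Bhlhe41 at chr6:145865421-145865590, both on the minus strand. Mmp3 lies at chr9:7445652-7445821, Mmp10 at chr9:7502172-7502341, Mmp13 at chr9:7272344-7272513 and Cyp1a1 at chr9:57697443-57697612, all on the plus strand. Cyp1b1 lies at chr17:79715062-79715231 and Ahrr at chr13:74292332-74292501, both on the minus strand.

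Ciart: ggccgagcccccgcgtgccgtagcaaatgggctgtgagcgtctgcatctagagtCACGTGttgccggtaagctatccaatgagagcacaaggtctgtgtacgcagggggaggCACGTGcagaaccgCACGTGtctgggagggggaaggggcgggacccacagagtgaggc
Bhlhe41: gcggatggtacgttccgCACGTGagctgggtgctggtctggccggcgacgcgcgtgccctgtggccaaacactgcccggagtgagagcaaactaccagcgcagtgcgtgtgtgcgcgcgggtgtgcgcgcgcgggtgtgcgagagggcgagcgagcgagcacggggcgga
Mmp3: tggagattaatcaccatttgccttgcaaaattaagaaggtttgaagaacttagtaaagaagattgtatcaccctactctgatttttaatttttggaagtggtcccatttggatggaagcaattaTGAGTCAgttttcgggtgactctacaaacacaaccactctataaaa
Mmp10: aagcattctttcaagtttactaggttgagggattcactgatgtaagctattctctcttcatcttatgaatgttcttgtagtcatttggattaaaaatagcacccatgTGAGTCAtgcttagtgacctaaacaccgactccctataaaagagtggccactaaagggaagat
Mmp13: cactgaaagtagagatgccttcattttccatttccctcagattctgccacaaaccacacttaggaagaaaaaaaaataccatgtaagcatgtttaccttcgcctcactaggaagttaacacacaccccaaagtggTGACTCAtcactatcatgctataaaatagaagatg
Cyp1a1: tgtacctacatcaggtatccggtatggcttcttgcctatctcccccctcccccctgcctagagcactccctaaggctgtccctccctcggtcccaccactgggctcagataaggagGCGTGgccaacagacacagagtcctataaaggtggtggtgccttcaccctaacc
Cyp1b1: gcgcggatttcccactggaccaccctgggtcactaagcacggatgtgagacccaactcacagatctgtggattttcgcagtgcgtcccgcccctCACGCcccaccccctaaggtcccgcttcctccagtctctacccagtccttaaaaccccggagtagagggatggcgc
Ahrr: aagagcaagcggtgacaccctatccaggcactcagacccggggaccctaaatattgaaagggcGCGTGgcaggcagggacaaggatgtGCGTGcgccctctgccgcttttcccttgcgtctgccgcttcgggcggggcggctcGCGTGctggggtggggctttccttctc

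Ciart held 3 E-boxes, 116, 58 and 44 bases before its start, and Ahrr 3 AhR cores, 107, 82 and 27 bases before its start. Of 32851 promoter windows of this length 4.67% held the E-box, 3.17% the AP-1 site and 22.4% the AhR core, and of the 27025 genes with such windows 5.35%, 3.69% and 24.9% did. Among the clock's repressing and output genes, 11 of 13 had a promoter in the table and 5 of these held an E-box (Per1, Cry1, Tef, Ciart and Bhlhe41). Among the metalloproteinases and their inhibitors 5 of 11 matched genes held an AP-1 site (Mmp3, Mmp7, Mmp10, Mmp12 and Mmp13), and among the AhR targets 4 of 7 held the core (Cyp1a1, Cyp1b1, Ahrr and Tiparp). A match describes these letters only, and the AhR core is short enough to be common.

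Library totals ran from 14497205 to 19149227 counts at 10 mpk and from 16031757 to 20391034 counts in sham. All 20 libraries held transcripts of colonocytes, with Car1, a carbonic anhydrase, at 529.5 FPKM or more and Vil1, the microvillus protein villin, at 79.7 FPKM or more. The summed level of Hoxa13, Hoxb13 and Hoxd13, which mark the distal end of the gut, was 66.1 to 151 FPKM in sham and 90.0 to 200.1 FPKM in 8 dosed libraries, but 21.5 and 15.9 FPKM in 10 mpk replicates 3 and 8. Replicate 6 had 0.05 FPKM of Xist, the RNA of the silenced X chromosome, against 39.0 to 51.5 FPKM in sham, 8 of the other 9 dosed libraries had 18.3 to 37.9 FPKM, and replicate 9 had 2.61% of its counts in mitochondrial genes against 7.71% to 9.74% in sham. Dosed libraries varied more among themselves than sham libraries: the median SD of log2 CPM was 0.337 at 10 mpk, 0.172 in sham and 0.338 in vehicle over 17407 genes. The labels give each library a name of its own but do not say that each is a separate animal, so p-values measure the spread between these samples.

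The comparison with sham asks how much of the TNBS change is present at the lowest dose. Genes of myeloid cells, matrix, vessels and early response factors were higher at 10 mpk than in sham, and many genes of absorptive colonocytes and drug metabolism and the period genes of the clock were lower. Of 16895 genes tested, 3709 (22.0%) were called higher and 2575 (15.2%) lower in edgeR's quasi-likelihood test (adjusted p under 0.05), and 838 changed at least 2-fold, 679 of them higher and 159 lower. The number at least 2-fold lower was 247 without replicate 3, 369 without both replicates 3 and 8, and 297 with quantile normalization. With quantile normalization 43.1% of the calls were higher, against 59% with the scaling used here. In vehicle libraries 3045 of 16820 genes (18.1%) were called higher and 2457 (14.6%) lower than in the same sham libraries, and 1006 changed at least 2-fold. The median log2 fold change over all genes tested was 0.02 at 10 mpk and 0.005 in vehicle. All 10 dosed libraries lay above all 10 sham libraries for 2.23% of the genes tested, and below them for 130 genes (0.769%). Tested against vehicle directly, 12 of 16810 genes (0.0714%) differed at 10 mpk, and 2548 passed an unadjusted p under 0.05. At that unadjusted threshold 13 of 20 monocyte and macrophage markers were lower than vehicle. Of 19 fibroblast genes 9 were lower and 1 higher, and of 13 clock repressing and output genes 11 were higher and 1 lower. Neutrophil markers (9 of 10 lower) and cytokines (5 of 9 lower) include members that can pass the filter only through vehicle. The monocyte and fibroblast lists each hold a member, Chil3 and Has1, that was below the filter for 10 mpk against sham. A level below vehicle in such members is no support. Without the pair of libraries low in distal Hox genes, 8048 genes differed from sham, 1257 of them at least 2-fold.

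Levels below are FPKM, fragments scaled by exon length and library size, given as the lowest, median and highest of the 10 libraries of a group. Unless a unit is given, a rise, a fall or a difference is a log2 fold change. Fold changes are edgeR's log2 fold changes on the counts with their standard error (SE), and adjusted p are edgeR's with Benjamini-Hochberg adjustment over all genes tested. Because this is bulk RNA, more cells of a type and more RNA per cell cannot be told apart.

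**Figure D1:**
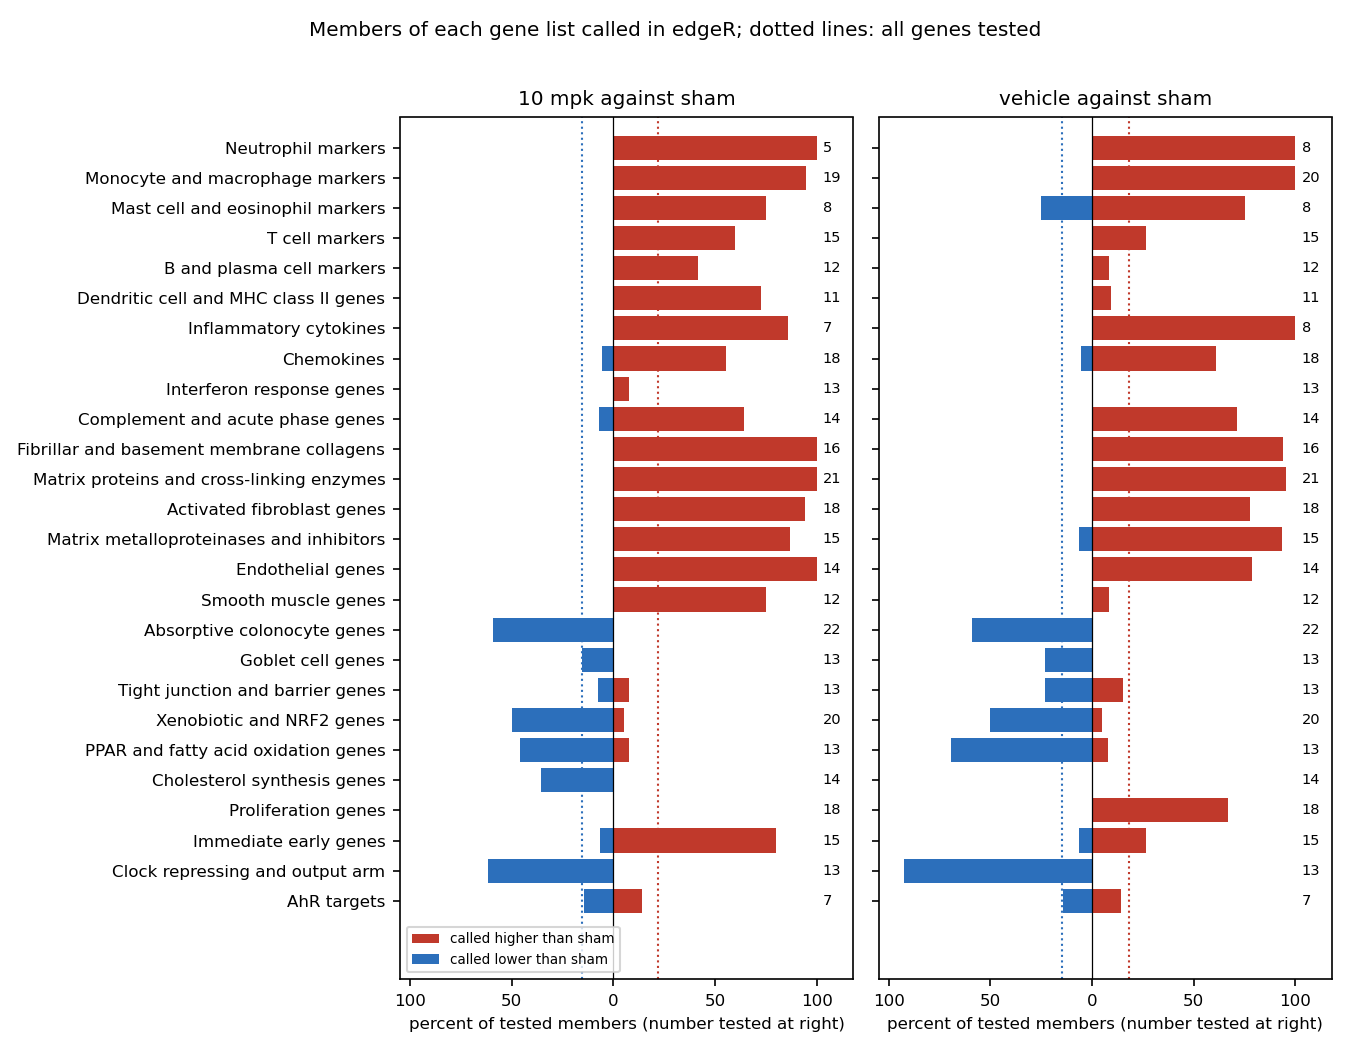
Percent of the tested members of 26 gene lists called higher (right of 0) or lower (left of 0) than sham in edgeR, at 10 mpk (left panel) and in vehicle (right panel), with the number tested at the right and all genes tested as dotted lines. All 16 collagens and 21 matrix genes tested were called higher at 10 mpk, no proliferation gene was called there against 12 of 18 in vehicle, and 12 of 15 immediate early genes were called higher at 10 mpk against 4 of 15 in vehicle; both panels use the same sham libraries.

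Neutrophil transcripts were present above sham in most dosed libraries. S100a9, an alarmin that neutrophils store in bulk (chr3:90599939-90603028 on GRCm39), stood at 1.58, 7.76 and 348 FPKM at 10 mpk and at 0.09, 0.57 and 1.88 FPKM in sham. Replicates 5 and 8 were highest, 8 of 10 dosed libraries exceeded all sham libraries, and replicates 3 and 6 lay inside the sham range. The log2 fold change was 6.49 (SE 1.21, adjusted p = 0.000479). Vehicle libraries reached 6.58, 189 and 3904 FPKM, and the direct difference of 10 mpk from vehicle was -3.59 (95% interval -6.31 to -0.86, adjusted p = 0.219). Mmp9, a gelatinase carried by neutrophils, rose by 2.86 (SE 0.27, adjusted p = 2.25e-07), from 0.37, 0.71 and 0.80 FPKM in sham to 1.47, 4.27 and 10.3 FPKM. Csf3r, the receptor of the neutrophil growth factor G-CSF, rose by 2.68 (SE 0.38, adjusted p = 2.5e-05), from 0.29, 0.375 and 0.61 FPKM to 0.80, 1.58 and 6.99 FPKM, and both genes separated the groups with no overlap. Retnlg, a secreted protein of granulocytes, rose by 4.25 (adjusted p = 5.98e-05).

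Of the 12 neutrophil markers 5 passed the filter on low counts and all 5 were called, but a gene so low in sham can pass only through the group where it is high, so that count is no support. The others were below the filter or, for Il1f9, not matched. S100a8, the partner of S100a9, summed to 30 counts over the 10 sham libraries and 4139 counts over the 10 dosed ones, Cxcr2, a chemokine receptor of neutrophils, to 18 and 750, and Mmp8, a neutrophil collagenase, to 17 and 1394. Without the filter edgeR gave log2 fold changes of 7.03, 5.31 and 6.21 (adjusted p = 0.00256, 0.00169 and 0.00658). The summed level of the list ran from 15.6 to 633 CPM at 10 mpk (median 77.8), from 11.2 to 28.6 CPM in sham and from 36.8 to 4752 CPM in vehicle.

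Monocyte and macrophage markers rose in 18 of 19 tested cases (20 listed), with a median log2 fold change of 1.37. All dosed libraries lay above all sham libraries for 10 of the genes, against 2.23% of all genes tested. In vehicle 20 of 20 rose, with a median of 1.94. The median direct difference of 10 mpk from vehicle was -0.79 over 20 genes. Of these, 0 were called and 13 were lower at an unadjusted p under 0.05 in edgeR. The 20 genes of both vehicle comparisons include Chil3, which was below the filter for 10 mpk against sham, so the medians cover unlike sets. Ccr2, the receptor that brings monocytes into tissue, stood at 2.25, 3.24 and 4.33 FPKM at 10 mpk and at 0.64, 1.07 and 1.89 FPKM in sham, with no overlap (log2 fold change 1.61, SE 0.18, adjusted p = 9.88e-07). Fcgr3, an activating receptor for IgG, rose by 1.63 (adjusted p = 1.28e-06) and Adgre1, the F4/80 antigen of macrophages, by 1.00 (adjusted p = 1.09e-06). The 3 chains of complement C1q, which tissue macrophages secrete, rose by 1.37 (C1qa), 1.42 (C1qb) and 1.51 (C1qc), and their vehicle values were 1.39, 1.52 and 1.55. Arg1, which marks alternatively activated macrophages and some myeloid cells, rose by 4.45 (SE 0.86, adjusted p = 0.000659), from 0.42, 0.78 and 0.98 FPKM in sham to 0.65, 2.56 and 73.8 FPKM, a call lost with quantile normalization. Spp1, osteopontin, rose by 3.41 at 10 mpk and by 6.06 in vehicle, a difference of -2.66 (95% interval -4.29 to -1.02, adjusted p = 0.148). Ly6c2, of inflammatory monocytes, did not pass (0.80, adjusted p = 0.09). The list summed to 550, 892 and 1404 CPM at 10 mpk and to 363, 436 and 526 CPM in sham, so every dosed library lay above every sham library.

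Mast cell proteases were among the largest rises. Mcpt1, the mucosal mast cell chymase (chr14:56255428-56257841), stood at 6.09, 72.6 and 886 FPKM at 10 mpk against 1.97, 3.64 and 21.6 FPKM in sham (log2 fold change 4.97, SE 0.82, adjusted p = 0.000154). The highest dosed library was replicate 6, the highest sham library was replicate 5, and replicates 3 and 8 lay inside the sham range. Mcpt2, its close relative, rose by 5.21 (adjusted p = 0.000125) and Cpa3, the carboxypeptidase of mast cells, by 3.59 (adjusted p = 0.000113). Ccr3, the eotaxin receptor of eosinophils, rose by 2.62 (adjusted p = 2.01e-05), from 0.02, 0.125 and 0.22 FPKM to 0.26, 0.76 and 1.42 FPKM with no overlap. Of 8 tested members 6 rose (13 listed), with a median of 3.11, against 6 higher and 2 lower of 8 in vehicle with a median of 2.29. As with the neutrophil markers, a member as low in sham as Ccr3 can pass the filter only through the dosed libraries, so that count is no support. Kit, the stem cell factor receptor, is also made by the pacemaker cells of the gut muscle and was not called (-0.11, adjusted p = 0.503), and Siglecf, of eosinophils, was not called either (0.12, adjusted p = 0.744).

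Lymphoid and antigen-presentation genes were higher than sham in several dosed libraries, and edgeR called 0 of them in the direct test against vehicle. In that test an unadjusted p under 0.05 was found for 6 of 11 dendritic cell and MHC class II genes. It was found for 2 of 12 B and plasma cell markers and 0 of 15 T cell markers, against 2548 of all 16810 genes tested. T cell markers rose in 9 of 15 cases (median 0.85) against 4 of 15 in vehicle (median 0.46), among them the granzymes Gzmb at 2.29 (SE 0.42, adjusted p = 0.000318) and Gzma at 2.76 (SE 0.59, adjusted p = 0.00144) and the inhibitory receptor Ctla4 at 1.54 (adjusted p = 0.00245). Gzmb had 0.49, 1.24 and 4.33 FPKM at 10 mpk and 0.03, 0.33 and 0.48 FPKM in sham, and Cd4 and Foxp3 were not called. H2-Aa, a chain of MHC class II (chr17:34501718-34506797), stood at 18.4, 44.5 and 85.2 FPKM at 10 mpk, at 18.4, 20.2 and 38.2 FPKM in sham and at 11.3, 24.0 and 43.4 FPKM in vehicle. It was called at 10 mpk (1.04, SE 0.23, adjusted p = 0.00206) but not in vehicle (0.25, adjusted p = 0.292), and 10 mpk minus vehicle was 0.77 (95% interval 0.22 to 1.32, adjusted p = 0.198). Of the dosed libraries 6 lay above the sham range with replicate 6 highest, replicates 1, 5 and 8 lay inside it, and replicate 3 lay just below. Cd74, the invariant chain, rose by 1.02 (adjusted p = 0.00235, lost with the rank-sum test), and Zbtb46, a factor of classical dendritic cells, by 0.71 (adjusted p = 0.000193). The dendritic cell and MHC class II list had 8 of 11 members higher at 10 mpk (median 0.77) and 1 of 11 in vehicle (median 0.15).

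B and plasma cell markers rose in 5 of 12 cases (median 0.72), with the immunoglobulin genes Igkc at 1.11 (adjusted p = 0.015) and Igha at 1.10 (adjusted p = 0.0259). Both calls were lost with the rank-sum test, and the list held 1 call with quantile normalization, 0 with the rank-sum test (where Cd79a, Cd79b and Mzb1 were also lost) and 8 without replicates 3 and 8. The T cell list held 5 calls with the rank-sum test and 12 without that pair. Replicates 3 and 8 had 1 of 15 T cell members each above the sham range, whereas replicates 6 and 10 had 14 each. Summed B and plasma cell levels ran from 1597 to 10010 CPM at 10 mpk and from 1159 to 3284 CPM in sham.

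**Figure D2:**
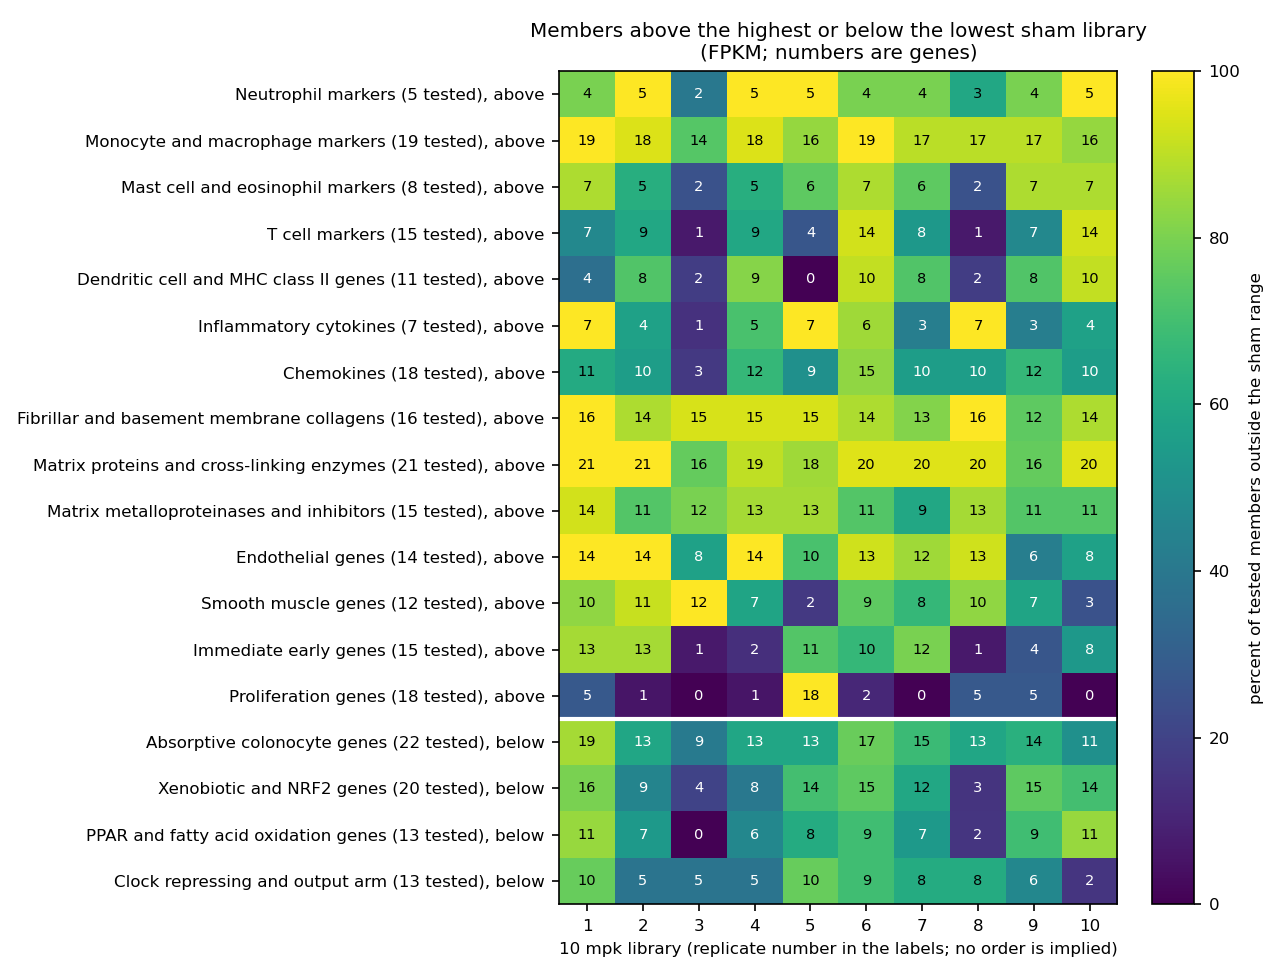
Number of tested members of 18 gene lists (rows) that lay above the highest sham library, or for the lower 4 rows below the lowest, in each of the 10 libraries at 10 mpk (columns); colour gives the percent of tested members. Collagens had 12 to 16 of 16 members above the sham range in every library, whereas proliferation genes had 18 of 18 in replicate 5 and 0 to 5 in the other libraries (members below the sham range, 14 in replicate 10, are not drawn for that list).

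Among cytokines, Il1b, the secreted product of inflammasome-active myeloid cells (chr2:129206490-129213059), stood at 1.24, 6.28 and 93.0 FPKM at 10 mpk and at 0.60, 1.11 and 2.0 FPKM in sham. All dosed libraries but replicate 3 lay above the sham range, and replicate 8 stood far above the other dosed libraries. Il1b rose by 3.67 (SE 0.68, adjusted p = 0.000473), and 10 mpk minus vehicle was -1.91 (95% interval -3.81 to -0.00, adjusted p = 0.329). Osm, an interleukin-6 family cytokine that acts on stroma, rose by 2.93 (adjusted p = 0.000255), Il11, of the same family, by 3.46 (adjusted p = 0.00447), Tnf by 0.97 (adjusted p = 0.0246) and Il1rn, the antagonist of the interleukin 1 receptor, by 0.64 (adjusted p = 0.00146). Of 7 tested cytokines 6 rose, with a median of 0.97, against 8 of 8 in vehicle with a median of 3.30. The medians cover unlike sets. Members low in sham can pass the filter only through the TNBS libraries, so these counts are no support. Of the 16 listed, 9 were below the filter. Il6 was among these, at 8 counts over the sham libraries and 191 over the dosed ones (4.40 without the filter, adjusted p = 0.000624), and Il1a (3.66, adjusted p = 0.0106), Csf2 (1.68, adjusted p = 0.0376), Il17a (0 counts in sham and 10 at 10 mpk, adjusted p = 0.0366) and Csf3 (0 and 73 counts, adjusted p = 0.0416) were also called without the filter, while Ifng, Il17f, Il22 and Il23a were not.

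Chemokines rose in 10 of 18 cases and fell in 1 (22 listed, median 0.88). Cxcl2, Cxcl3, Ccl3 and Ccl4 were below the filter. A member as low in sham as Cxcl5 can pass the filter only through the dosed libraries, so its part in that count is no support. Cxcl5, an attractant of neutrophils, stood at 0.65, 2.06 and 57.0 FPKM at 10 mpk and at 0.03, 0.09 and 0.22 FPKM in sham, with no overlap (6.22, SE 0.99, adjusted p = 0.000111). Ccl11, eotaxin 1, rose by 1.18 (SE 0.13, adjusted p = 1.03e-06) from 13.1, 16.2 and 22.9 FPKM to 24.5, 37.6 and 57.7 FPKM, also with no overlap. Cxcl12, a stromal attractant of CXCR4-bearing cells, rose by 0.87 (adjusted p = 1.83e-05) and Ccl7, an attractant of monocytes, by 1.92 (adjusted p = 3.79e-05). Ccl8 and Ccl24 rose by 3.70 and 2.82, with vehicle values of 2.78 and 3.22, and Ccl28, an epithelial chemokine for plasma cells, fell by 0.62 (adjusted p = 0.00252). The interferon-induced attractants Cxcl9 and Cxcl10 were not called (0.48 and 0.40), and of 13 interferon response genes 1, Isg15, was called (1.08, adjusted p = 0.0427), a call lost under 19 of 32 alternatives. In vehicle edgeR called 0 interferon response genes (0 at an unadjusted p under 0.05), and the list medians were 0.27 and 0.07.

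Complement and acute phase genes rose in 9 of 14 cases and fell in 1 (Cfb at -0.28, adjusted p = 0.0127). C4b, a component of the classical pathway, stood at 10.9, 19.0 and 35.5 FPKM at 10 mpk and at 7.31, 8.70 and 10.7 FPKM in sham, with no overlap (1.2, SE 0.16, adjusted p = 1.6e-05). Serping1, the C1 inhibitor, rose by 0.85 (adjusted p = 9.43e-06) and C1s1, the C1s protease, by 0.79 (adjusted p = 3.19e-05), with vehicle values of 1.01 and 0.80. Lcn2, which binds bacterial siderophores, rose by 3.76 at 10 mpk (SE 0.79, adjusted p = 0.0014) and by 8.01 in vehicle, with a direct difference of -4.24 (95% interval -6.90 to -1.59, adjusted p = 0.158). Ptx3, a soluble pattern recognition protein, stood at 0.30, 0.88 and 19.5 FPKM at 10 mpk against 0.04, 0.12 and 0.20 FPKM in sham (4.66, SE 0.85, adjusted p = 0.000403). Antimicrobial epithelial genes gave 3 rises and 2 falls of 14, shares close to the 22.0% and 15.2% of all genes, and the rises numbered 0 to 3 under the alternatives: Reg4, a lectin of enteroendocrine and goblet cells, rose by 1.11 (adjusted p = 0.0288, lost under 10 of 32 alternatives), and Pigr, the carrier of IgA, and Nlrp6, an epithelial inflammasome sensor, fell by 0.56 and 0.47. Reg3b and Reg3g, bactericidal lectins, were not called (-0.70 and -0.52). Prostaglandin and leukotriene genes rose in 7 of 12 cases and fell in 2, with Alox5ap, the partner protein of 5-lipoxygenase, at 1.89 (adjusted p = 1.48e-05), Ptgis, prostacyclin synthase, at 1.03 (adjusted p = 1.91e-06), Ptgs1, cyclooxygenase 1, at 0.52 (adjusted p = 5.21e-05) and Hpgd, which degrades prostaglandins, at -0.42 (adjusted p = 0.0139).

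**Figure D3:**
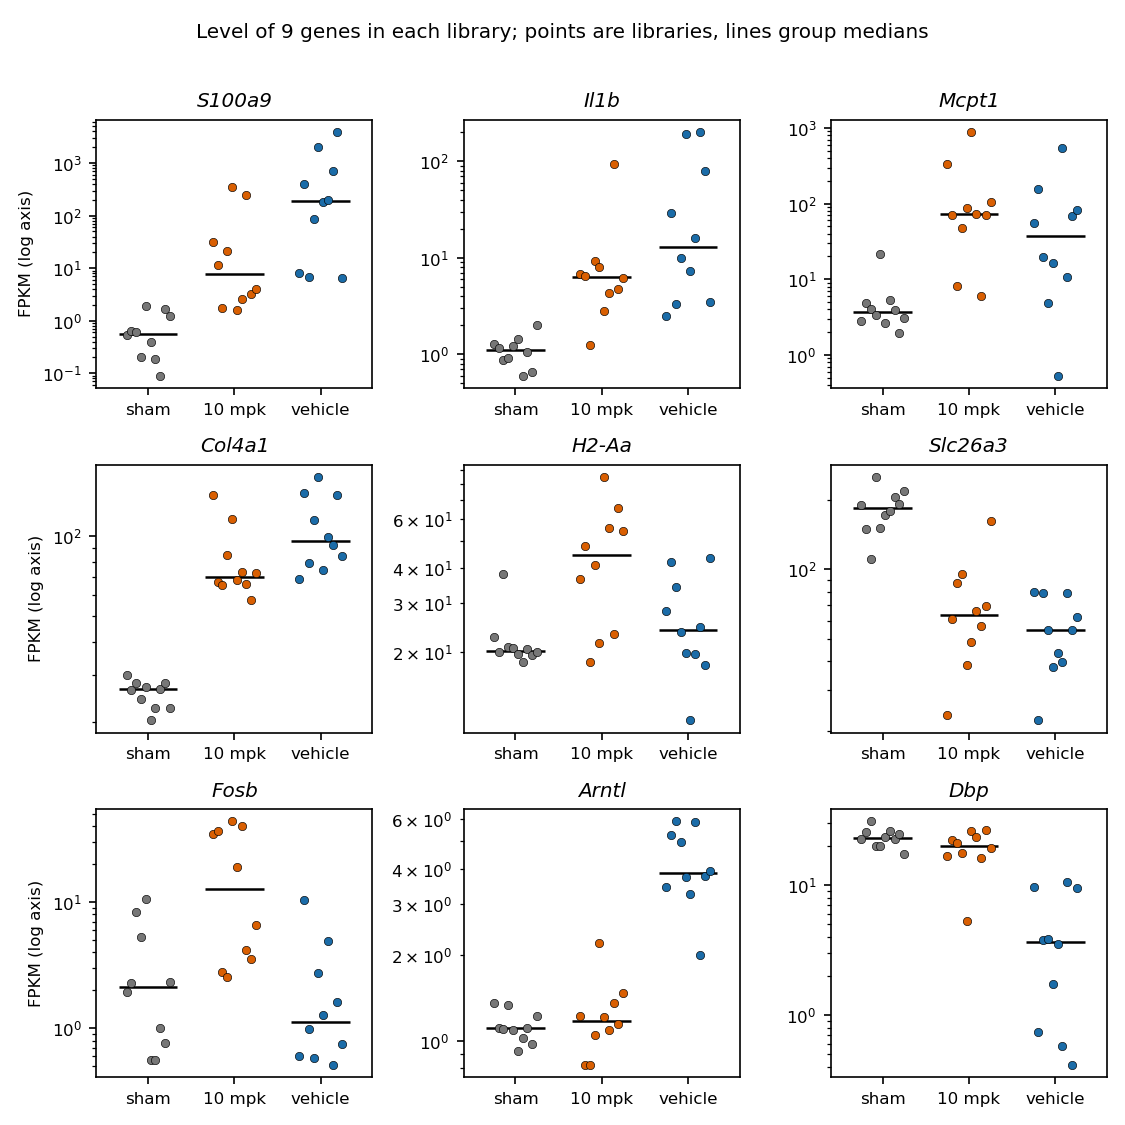
FPKM on a log axis of 9 genes in each sham, 10 mpk and vehicle library (points), with the group median as a line. Col4a1 separated all 10 dosed from all 10 sham libraries, S100a9 overlapped sham in 2 dosed libraries, and Arntl and Dbp lay near sham at 10 mpk and apart from it in vehicle.

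Collagen and matrix genes were called higher in every tested case (15 collagens and 19 matrix genes with quantile normalization). All dosed libraries lay above all sham libraries for 12 of 16 collagens and 12 of 21 matrix genes, against 2.23% of all genes tested. Replicate 10 had 1 collagen, and replicate 9 had 2 matrix genes, below the lowest sham library. Col4a1, a collagen of basement membranes (chr8:11248423-11362826), stood at 57.2, 70.4 and 142 FPKM at 10 mpk, at 20.2, 26.4 and 30.0 FPKM in sham and at 69.2, 96.0 and 167 FPKM in vehicle. The lowest dosed library lay above the highest sham library, and the dosed and vehicle ranges overlapped over most of their length. Col4a1 rose by 1.67 (SE 0.14, adjusted p = 9.59e-08), with 2.07 in vehicle and a direct difference of -0.41 (95% interval -0.79 to -0.02, adjusted p = 0.303). Col1a2, of the main fibrillar collagen, rose by 2.0 (SE 0.18, adjusted p = 1.25e-07), from 15.2, 20.4 and 24.7 FPKM to 53.9, 70.6 and 180 FPKM, and Col6a3, of beaded microfibrils, by 1.66 (adjusted p = 1.25e-07). All 16 collagens tested rose, with a median of 1.53, and 12 separated the groups completely, whereas 15 of 16 rose in vehicle with a median of 1.75. The summed collagen level ran from 4533 to 13230 CPM at 10 mpk and from 1388 to 2211 CPM in sham.

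All 21 matrix proteins and cross-linking enzymes rose (median 1.28). Loxl1 and Loxl2, lysyl oxidase-like enzymes that cross-link elastin and collagen, rose by 1.80 (adjusted p = 3.74e-07) and 1.69 (adjusted p = 4.65e-07), and Fn1, fibronectin, by 1.63 (adjusted p = 5.92e-07). Fn1 had 29.4, 52.1 and 103 FPKM at 10 mpk and 14.7, 18.9 and 25.3 FPKM in sham. Fibroblast genes rose in 17 of 18 tested cases (median 0.97), with the growth factor receptor gene Pdgfrb at 0.99 (SE 0.08, adjusted p = 1.2e-07), the BMP antagonist Grem1 at 2.09 (SE 0.20, adjusted p = 2.25e-07) and podoplanin, Pdpn, at 1.45 (adjusted p = 2.89e-07). Grem1 stood at 41.5, 47.4 and 121 FPKM at 10 mpk, at 12.8, 14.8 and 18.3 FPKM in sham and at 35.6, 129 and 193 FPKM in vehicle. Timp1, an inhibitor of metalloproteinases, rose by 4.29 (SE 0.62, adjusted p = 4.24e-05), from 0.40, 1.06 and 1.56 FPKM to 3.82, 9.49 and 103 FPKM, and by 6.82 in vehicle. H19, an imprinted non-coding RNA of fetal tissue, rose by 4.38 (SE 0.34, adjusted p = 4.92e-08), from 0.02, 0.14 and 0.22 FPKM to 1.37, 2.22 and 5.81 FPKM, and its direct difference from vehicle was -0.31 (95% interval -0.98 to 0.36, adjusted p = 0.671).

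Metalloproteinases and their inhibitors rose in 13 of 15 cases (median 1.25), against 14 of 15 in vehicle (median 1.80). Mmp2, a gelatinase of fibroblasts, rose by 1.37 (SE 0.12, adjusted p = 1.55e-07), from 8.83, 11.5 and 14.0 FPKM in sham to 21.4, 27.4 and 49.1 FPKM, with no overlap. Mmp14, its membrane-bound activator, rose by 1.17 (adjusted p = 5.92e-07) and Mmp11, stromelysin 3, by 1.25 (adjusted p = 1.29e-05). The 3 genes whose promoters are printed above with an AP-1 site also rose: Mmp3 by 2.87 (adjusted p = 0.00112), Mmp10 by 4.10 (adjusted p = 0.00032) and Mmp13 by 2.50 (adjusted p = 0.00131). Replicate 5 was the highest dosed library for each, at 37.8 FPKM for Mmp3 and 32 FPKM for Mmp13, where the next highest dosed libraries had 4.83 and 5.84 FPKM. Mmp10 was also high in replicate 1 (23.6 FPKM), and stood at 1.81, 3.54 and 75.1 FPKM against 0.47, 0.66 and 1.29 FPKM in sham. Timp3 was not called (-0.26, adjusted p = 0.252).

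Vessel genes were called higher in every tested case: 14 of 14 endothelial genes (15 listed), with a median of 0.87, against 11 of 14 in vehicle with a median of 0.82. All 14 lay above the sham range in replicates 1, 2 and 4, but 8 in replicates 3 and 10. Replicate 9 had 6 above that range and 2 below it. All dosed libraries lay above all sham libraries for 2 members, against 2.23% of all genes tested. Tie1, a receptor of endothelial cells, rose by 1.14 (SE 0.13, adjusted p = 1.72e-06), Emcn, endomucin of venous and capillary endothelium, by 0.82 (adjusted p = 5.17e-06) and Apln, the peptide apelin of sprouting tip cells, by 1.31 (adjusted p = 1.96e-05). Tie1 stood at 4.15, 5.94 and 10.7 FPKM at 10 mpk and at 2.31, 2.89 and 3.76 FPKM in sham. Red cell and platelet genes rose as well, 7 of 7 tested, with Pf4, platelet factor 4, at 2.10 (adjusted p = 1.67e-05) and the globin genes Hba-a2 and Hbb-bs at 2.43 and 1.54. In vehicle 2 of 6 tested red cell and platelet genes were called higher, so the tested sets differ. Against vehicle directly, edgeR called 0 of 7 (median 0.25), and 0 had an unadjusted p under 0.05. Summed hemoglobin levels were 29.4 to 109 CPM at 10 mpk and 10.2 to 51.8 CPM in sham. Whether blood and vessel transcripts moved together from library to library, and the part of blood in the result, was not tested.

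Smooth muscle genes were called in 9 of 12 cases at 10 mpk (median 0.40) and in 1 of 12 in vehicle (median 0.07). Tagln, an actin-binding protein of contractile cells, rose by 0.84 (SE 0.15, adjusted p = 0.000258), Des, desmin, by 0.68 (adjusted p = 0.000436) and Cnn1, calponin, by 0.52 (adjusted p = 0.00032). Cnn1 had 206, 299 and 367 FPKM at 10 mpk, 162, 199 and 251 FPKM in sham and 92.4, 241 and 385 FPKM in vehicle, so the vehicle range enclosed both others. Myh11, the myosin heavy chain of smooth muscle, was not called (-0.06, adjusted p = 0.747), and edgeR called 0 smooth muscle genes against vehicle (4 at an unadjusted p under 0.05). Of the neuron and glia genes 6 of 14 rose, against 22.0% of all genes called higher. Among them were the gut peptide Vip at 0.95 (adjusted p = 0.000201), the receptor Ret at 0.51 (adjusted p = 0.00456) and Tac1, which encodes substance P, at 0.43 (adjusted p = 0.0261). The count was 2 with quantile normalization, the replicate block, no filter or log2(FPKM + 0.5). It was 3 with the rank-sum test or all 50 libraries, and 6 with DESeq2 or sample weights.

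Epithelial genes of absorptive function were lower. Slc26a3, which exchanges chloride for bicarbonate (chr12:31440870-31523916), stood at 23.6, 63.7 and 162 FPKM at 10 mpk, at 111, 184 and 251 FPKM in sham and at 22.3, 54.9 and 79.5 FPKM in vehicle. All dosed libraries but replicate 10 lay below the sham range. It fell by 1.35 (SE 0.25, adjusted p = 0.000428), with -1.71 in vehicle and a direct difference of 0.36 (95% interval -0.23 to 0.94, adjusted p = 0.564). Car4, a membrane carbonic anhydrase (chr11:84848612-84856870), separated the groups: 32.7, 87.9 and 126 FPKM at 10 mpk and 141, 207 and 240 FPKM in sham (-1.25, SE 0.17, adjusted p = 1.63e-05). Slc20a1, a phosphate transporter, fell by 1.08 (adjusted p = 4.26e-05) and Slc26a2, a sulfate transporter, by 0.92 (adjusted p = 0.00041). The potassium-transporting proton pump Atp12a fell by 1.85 (adjusted p = 0.0161) and the epithelial sodium channel subunit Scnn1g by 1.5 (adjusted p = 0.0152). Of 22 colonocyte genes 13 fell and 0 rose, with a median of -0.46, and in vehicle also 13 of 22 with a median of -0.55. Without the Hox-low pair 17 fell.

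Sgk1, the aldosterone-induced kinase that raises sodium channel activity, stood at 13.6, 21.5 and 56.9 FPKM at 10 mpk, at 43.1, 55.0 and 114 FPKM in sham and at 24.3, 36.5 and 86.1 FPKM in vehicle. Every dosed library but replicate 5 was below the sham range (-1.38, SE 0.23, adjusted p = 0.000133), while the vehicle value was -0.50 (adjusted p = 0.141) and the direct difference -0.88 (95% interval -1.47 to -0.29, adjusted p = 0.172). Fxyd4, a regulator of the sodium pump, fell by 1.55 (adjusted p = 0.019), Tgm3, a transglutaminase, by 1.45 (adjusted p = 0.025) and Clec2j, a C-type lectin, by 1.36 (adjusted p = 0.00206). Cyp2d9, a cytochrome P450, fell by 2.07 (SE 0.20, adjusted p = 2.25e-07): it stood at 0.71, 1.51 and 2.93 FPKM at 10 mpk and at 5.02, 6.98 and 8.30 FPKM in sham, with no overlap. Its vehicle value was -1.30 and the direct difference -0.79 (95% interval -1.51 to -0.06, adjusted p = 0.291). Cyp2d12, of the same family, fell by 1.99 (adjusted p = 0.000643), Itih2, a hyaluronan-binding inhibitor chain, by 1.37 (adjusted p = 0.00106), Amy1, an amylase, by 1.65 (adjusted p = 0.0329, lost under 16 of 32 alternatives) and 7SK, a small nuclear RNA with many copies in the genome, by 1.44 (adjusted p = 0.00304). Close relatives such as the Cyp2d genes are uncertain where reads could belong to several of them. Sis, sucrase-isomaltase, which was among the largest falls in vehicle (-1.95), was not called at 10 mpk (-1.07, adjusted p = 0.161). The fall of Sis was called with quantile normalization, on log2(FPKM + 0.1), without replicate 3 and without both replicates 3 and 8.

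Among genes of other epithelial lineages, the stem cell, Wnt and fetal-like list had 7 of 12 tested members higher and 2 lower (median 0.78), and the enteroendocrine and tuft list 3 higher and 4 lower of 12 (median -0.04). Over all genes tested 22.0% were called higher and 15.2% lower. Of 13 goblet cell genes 2 fell, a share close to the 15.2% of all genes called lower: Atoh1, the secretory lineage factor, by 0.71 (SE 0.10, adjusted p = 1.72e-05) and Ern2, a stress sensor of mucus-producing cells, by 0.70 (adjusted p = 0.00383), while Muc2, the main mucin, was at -0.27 (adjusted p = 0.271). Smoc2, a matricellular protein listed with the stem cell genes and also made by stroma, rose by 0.82 (adjusted p = 1.96e-06), Anxa1, of the repair-associated fetal-like program, by 0.73 (adjusted p = 0.00148), and Axin2, a Wnt target, fell by 0.57 (adjusted p = 0.000195). Trpm5, the cation channel of tuft cells, separated the groups at 0.33, 0.415 and 0.60 FPKM against 0.74, 0.87 and 1.34 FPKM (-1.08, SE 0.15, adjusted p = 1.79e-05), and Pou2f3, the tuft cell factor, fell by 0.90 (adjusted p = 0.0137). Chgb and Tph1, of enteroendocrine cells, fell by 0.40 (adjusted p = 0.000922) and 0.33 (adjusted p = 0.0319), whereas the hormones Insl5 and Pyy rose by 1.05 (adjusted p = 0.0243) and 1.07 (adjusted p = 0.0137). None of the list's 3 rises was called with quantile normalization, the rank-sum test, sample weights, the replicate block or log2(FPKM + 0.5). Among tight junction genes Cldn4 rose by 1.62 (adjusted p = 0.000185) and Ocln, occludin, fell by 0.46 (adjusted p = 0.000955). Cldn8 was at 0.22 at 10 mpk (adjusted p = 0.373) and at 1.37 in vehicle, with a direct difference of -1.16 (95% interval -1.64 to -0.69) that was not called (adjusted p = 0.05).

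Keratins of stratified epithelium rose: Krt90, a type II keratin, by 6.75 (SE 1.05, adjusted p = 8.55e-05), Krt13 by 5.88 (adjusted p = 0.000148) and Krt14 by 3.13 (adjusted p = 6.54e-05). Krt90 and Krt13 separated the groups, at 0.46, 1.19 and 36.6 FPKM and at 0.32, 1.28 and 23.6 FPKM against sham levels of at most 0.11 and 0.28 FPKM. The squamous list summed to 4.37, 14.3 and 61.0 CPM at 10 mpk and to 3.24, 4.64 and 7.27 CPM in sham. The defining squamous genes Ivl, Sprr2d and Trp63 were at 0 or near it in the dosed libraries (medians of 0, 0 and 0.01 FPKM), and 4 of 11 listed genes could be tested, 2 of them called higher. Without the filter on low counts Krt5 (1.99, adjusted p = 0.00274), Krt6a (0 counts in sham and 53 at 10 mpk, adjusted p = 0.0327) and Dsg3 (1.61, adjusted p = 0.0293) were also called. Acinar digestive enzymes of the pancreas were called in 4 of 5 tested cases (17 listed), among them Cpb1 at 4.36, Pnliprp1 at 2.71, Ctrl at 2.31 and Clps at 1.79, calls that each failed under some alternatives. Replicate 7 held 1204 CPM of the acinar list against 28.0 to 265.6 CPM in the other dosed libraries and 50.6 to 107 CPM in sham. With quantile normalization 1 of the 5 was called. In the squamous and acinar lists members low in sham can pass the filter only through the dosed libraries, so neither count is support.

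Metabolic genes of the epithelium were lower in part. The xenobiotic and NRF2 list had 10 of 20 members lower and 1 higher (median -0.42), and in vehicle 10 lower and 1 higher (median -0.61). Hmox1, heme oxygenase 1, was the member that rose, by 1.59 (SE 0.22, adjusted p = 1.94e-05), from 2.29, 3.30 and 4.85 FPKM to 5.29, 9.36 and 21.7 FPKM with no overlap. Cyp2s1, a cytochrome P450 of mucosal surfaces, fell by 0.59 (adjusted p = 0.00203) and Gstm3, a glutathione transferase, by 0.59 (adjusted p = 0.00342). Ephx1, microsomal epoxide hydrolase, stood at 10.7, 20.4 and 25.5 FPKM at 10 mpk, 17.3, 20.8 and 23.0 FPKM in sham and 8.06, 12.4 and 15.1 FPKM in vehicle. It was called against vehicle (0.72, 95% interval 0.43 to 1.01, adjusted p = 0.0498) and not against sham (-0.08, adjusted p = 0.561). Fatty acid oxidation genes fell in 6 of 13 cases and rose in 1, with Acadvl, the very-long-chain dehydrogenase, at -0.35 (adjusted p = 0.00152), Cpt1a, the carnitine transferase of mitochondrial import, at -0.46 (adjusted p = 0.0107) and Acadm at -0.27 (adjusted p = 0.0105). Over all genes tested 15.2% were called lower at 10 mpk and 14.6% in vehicle. Cholesterol synthesis genes fell in 5 of 14 cases at 10 mpk and in 0 of 14 in vehicle (1 at an unadjusted p under 0.05), with Srebf2, the controlling transcription factor, at -0.30 (adjusted p = 0.000473) and Idi1 at -0.62 (adjusted p = 0.00714). Their direct differences from vehicle were -0.20 and -0.36, neither of which passed.

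AhR targets did not move as a group. Of 7 tested targets (9 listed) 1 rose and 1 fell against sham, with a median of -0.21, and in vehicle likewise 1 rose and 1 fell with a median of -0.21. Cyp1a1, the enzyme most used to read AhR activity, stood at 0.07, 0.20 and 0.52 FPKM at 10 mpk, at 0.04, 0.35 and 0.51 FPKM in sham and at 0.04, 0.19 and 0.66 FPKM in vehicle. The ranges overlapped almost entirely, and the log2 fold change was -0.48 (95% interval -1.22 to 0.25, adjusted p = 0.281) at levels of 168 counts over the 10 sham libraries. Cyp1b1, a related P450 also made by stromal cells, rose by 1.19 (SE 0.28, adjusted p = 0.00269), from 0.05, 0.125 and 0.33 FPKM to 0.13, 0.345 and 0.52 FPKM, a call lost with all 50 libraries in 1 fit. In vehicle it reached 0.16, 0.715 and 14.5 FPKM, and 10 mpk minus vehicle was -3.35 (95% interval -4.97 to -1.72, adjusted p = 0.0909). Ugt1a6a, a glucuronosyltransferase whose exons are partly shared with its neighbours, fell by 1.09 (SE 0.38, adjusted p = 0.0298), with -0.99 in vehicle, and lost its call without replicate 6 or without replicate 7 and without a filter. Ahrr, the repressor of AhR (0.27), Tiparp, an ADP-ribosyltransferase (-0.24), Nqo1, a quinone reductase (-0.21), and Aldh3a1, an aldehyde dehydrogenase (-0.09), were not called. Without replicates 3 and 8 the list held 3 falls. Ahr itself was at 0.17 and was not called (adjusted p = 0.063). Tryptophan and kynurenine enzymes, only some of which make AhR ligands, gave 1 rise (Kmo, 0.89, adjusted p = 0.0137) and 1 fall (Tph1) of 7, shares no larger than the 22.0% and 15.2% of all genes. The call of Kmo was lost under 2 and that of Tph1 under 8 of 32 alternatives.

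Immediate early genes were higher at 10 mpk in a subset of libraries. Fosb, an AP-1 factor (chr7:19036621-19043976), stood at 2.54, 12.8 and 43.7 FPKM at 10 mpk, at 0.56, 2.11 and 10.6 FPKM in sham and at 0.51, 1.13 and 10.4 FPKM in vehicle. Replicates 1, 2, 5, 6 and 7 lay above the sham range and the other 5 inside it. It rose by 2.52 (SE 0.69, adjusted p = 0.00873), with -0.48 in vehicle (adjusted p = 0.59) and a direct difference of 2.99 (95% interval 1.53 to 4.45, adjusted p = 0.0929). Atf3, a stress-induced repressor, rose by 2.27 (SE 0.51, adjusted p = 0.00245, lost with the rank-sum test) from 6.07, 8.82 and 16.7 FPKM to 6.09, 34 and 119 FPKM, and Junb by 1.00 (adjusted p = 0.00109). Jun rose by 0.91 (adjusted p = 0.00723) and was also called against vehicle (1.19, 95% interval 0.76 to 1.61, adjusted p = 0.0367). Ier3, an early response gene that follows inflammatory signals, rose by 1.02 (adjusted p = 0.000986) but was higher in vehicle, at 2.01. Of 15 members 12 rose and 1 fell (Klf4, -0.37), with a median of 1.01, against 4 and 1 of 15 in vehicle with a median of 0.16. Replicates 1, 2 and 7 had 12 or 13 of 15 members above the sham range and replicates 3, 4 and 8 had 1, 2 and 1, and with the rank-sum test 8 were called.

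Of 10 heat shock genes, 3 rose at 10 mpk (2 to 4 under the alternatives), against 22.0% of all genes called higher. Hspb1, a small chaperone, rose by 1.38 (SE 0.20, adjusted p = 3.85e-05), from 26.8, 34.6 and 44.5 FPKM to 38.6, 94.6 and 159 FPKM, Hspe1 by 0.49 (adjusted p = 0.0159) and Hspa5, of the endoplasmic reticulum, by 0.34 (adjusted p = 0.0313, lost under 6 of 32 alternatives). The inducible Hspa1a was close to sham (-0.23, adjusted p = 0.614), at 3.86, 14.8 and 24.9 FPKM against 4.73, 15.6 and 44.0 FPKM, but at 2.44, 4.08 and 12 FPKM in vehicle (-1.77, adjusted p = 0.0005). Its direct difference from vehicle was 1.53 (95% interval 0.88 to 2.18, adjusted p = 0.0568). Dnajb1, its cochaperone, was called against vehicle (0.57, adjusted p = 0.0463) and not against sham (-0.02). Proliferation genes were called in 0 of 18 cases at 10 mpk in edgeR (median 0.16, 2 at an unadjusted p under 0.05), in 1 with DESeq2 and in 1, lower, with the rank-sum test, and in 12 of 18 in vehicle (median 0.59). Ccnb2, a mitotic cyclin, stood at 8.05, 15.7 and 40.8 FPKM at 10 mpk and at 9.94, 12.8 and 16 FPKM in sham (0.38, adjusted p = 0.14), and Pcna, the replication clamp, at 0.12 (adjusted p = 0.284). Replicate 5 had 18 of 18 members above the sham range, whereas replicates 10, 3 and 7 had 14, 9 and 8 members below it. Against vehicle edgeR called 0 of them (1 at an unadjusted p under 0.05). Hypoxia and glycolysis genes rose in 2 of 14 cases, a smaller share than the 22.0% of all genes, Egln3 at 0.57 (adjusted p = 0.0252) and Adm at 0.54 (adjusted p = 0.0336), and both calls were lost under several alternatives.

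**Figure D4:**
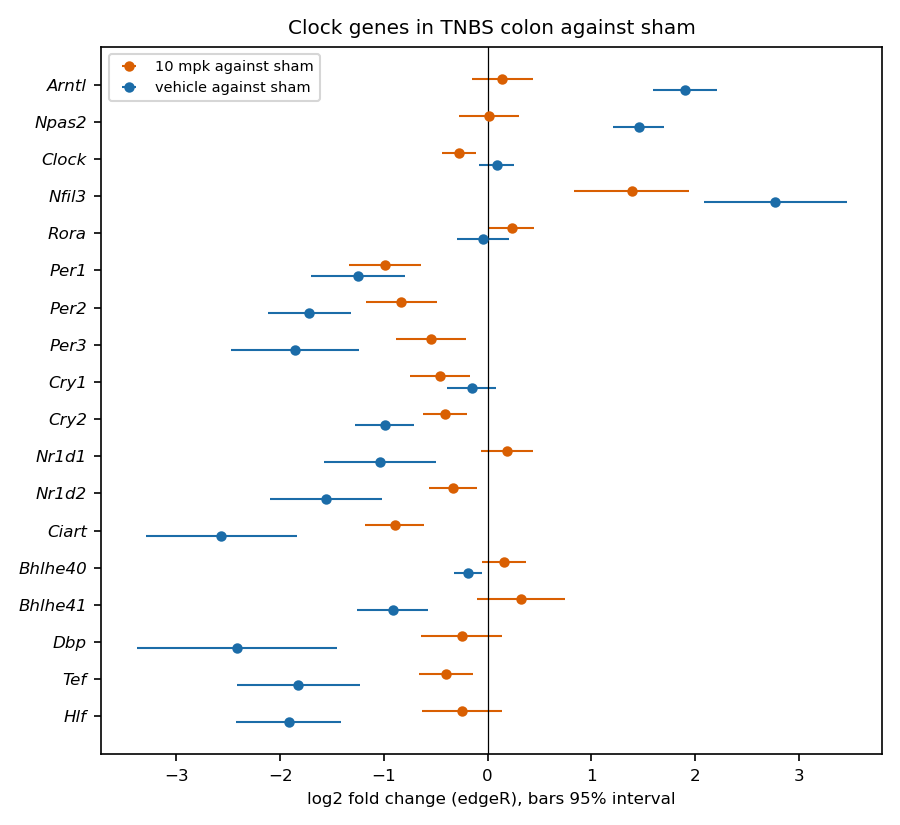
Log2 fold change against sham with its 95% interval for 18 clock genes, at 10 mpk and in vehicle, from edgeR; both contrasts use the same sham libraries. Arntl and Npas2 lay near 0 at 10 mpk (0.14 and 0.01) and at 1.9 and 1.46 in vehicle, and Ciart fell by 0.89 at 10 mpk against 2.57 in vehicle.

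Of the 12 genes called between 10 mpk and vehicle, 4 were genes of the circadian clock. Arntl, which encodes BMAL1 of the activating arm (chr7:112806672-112913333), stood at 0.82, 1.18 and 2.19 FPKM at 10 mpk, at 0.92, 1.11 and 1.36 FPKM in sham and at 2.0, 3.86 and 5.86 FPKM in vehicle. Replicate 5 was the highest dosed library and the only dosed library above the lowest vehicle library. Against sham Arntl was at 0.14 (95% interval -0.15 to 0.44, adjusted p = 0.439) at 10 mpk and at 1.9 in vehicle (adjusted p = 1.58e-08), and 10 mpk minus vehicle was -1.77 (95% interval -2.16 to -1.38, adjusted p = 7.26e-05). Npas2, a partner of BMAL1, gave 0.01 at 10 mpk and 1.46 in vehicle, with a difference of -1.46 (95% interval -1.80 to -1.11, adjusted p = 0.000104). Clock, its paralog, fell by 0.27 (adjusted p = 0.0108), and Nfil3, a repressor that opposes DBP, rose by 1.39 (adjusted p = 0.000546).

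In the repressing and output arm 8 of 13 genes fell at 10 mpk (median -0.40) and 12 of 13 in vehicle (median -1.56). Ciart, a repressor of BMAL1 with 3 E-boxes in the promoter shown above (gene at chr3:95785815-95789563 on GRCm39), stood at 2.26, 3.54 and 4.72 FPKM at 10 mpk, at 4.76, 6.63 and 7.81 FPKM in sham and at 0.14, 1.05 and 2.54 FPKM in vehicle. All dosed libraries lay below all sham libraries, and 7 of them lay above all vehicle libraries. It fell by 0.89 (SE 0.14, adjusted p = 5.16e-05), and the direct difference from vehicle was 1.66 (95% interval 0.90 to 2.42, adjusted p = 0.0786). The period genes Per1, Per2 and Per3 fell by 0.99 (adjusted p = 0.000153), 0.83 (adjusted p = 0.000698) and 0.54 (adjusted p = 0.0131), with vehicle values of -1.25, -1.72 and -1.86. Dbp, an output factor (chr7:45354512-45359627), stood at 5.30, 20.3 and 26.7 FPKM at 10 mpk, at 17.3, 23.3 and 31.1 FPKM in sham and at 0.41, 3.65 and 10.6 FPKM in vehicle. It was not called against sham (-0.25, adjusted p = 0.29), the vehicle value was -2.42, and the direct difference was 2.15 (95% interval 1.12 to 3.18, adjusted p = 0.0878). Hlf, of the same family, was at -0.25 against sham (adjusted p = 0.293) and 1.66 above vehicle (95% interval 1.03 to 2.29, adjusted p = 0.0463), and Tef fell by 0.40 (adjusted p = 0.0178). Bhlhe41, a repressor with 1 E-box in the printed window, was at 0.32 against sham (adjusted p = 0.221) and 1.22 above vehicle (95% interval 0.74 to 1.70, adjusted p = 0.0463). For Dbp and Hlf replicate 5 was the lowest dosed library.

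The genes called against vehicle were Arntl, Npas2, Arg2, Leo1, Hlf, Bhlhe41, Jun, Otud1, Klf11, Ephx1, Dnajb1 and Gm26532, and those outside the rule for named genes are named because the count is small. Arg2, mitochondrial arginase, stood at 7.69, 10.1 and 14.7 FPKM at 10 mpk, at 6.21, 8.32 and 9.65 FPKM in sham and at 14.8, 17.8 and 41.9 FPKM in vehicle, so that the dosed and vehicle libraries did not overlap (-1.16, adjusted p = 0.0498). Klf11, a Krüppel-like factor, rose against sham by 0.42 (adjusted p = 0.00742) and stood 0.69 above vehicle, and Otud1, a deubiquitinase, rose by 0.51 (adjusted p = 0.0031) and stood 0.75 above vehicle (adjusted p = 0.0168). Gm26532, a predicted gene, rose by 1.19 (adjusted p = 0.000611) with -0.11 in vehicle. Leo1, a subunit of the PAF1 elongation complex, was 0.44 lower than in vehicle on the log2 scale and was not called against sham (0.18, adjusted p = 0.0554). This count rests on few libraries: it was 402 without 10 mpk replicate 5, 79 without vehicle replicate 1 and 2 to 20 without any other single library, and 0 with the rank-sum test (where 2321 had an unadjusted p under 0.05).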

How the data were processed

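RNA of colon from the labelled groups was measured by poly(A) RNA-seq: per the labels' protocols total RNA was taken up in TRIzol, selected on oligo(dT) beads and copied with random primers. The authors deposited a table of raw read counts for 56691 genes, of which 2639 have no symbol and 959 share one, and a table of FPKM values. The submitters' processing notes name the build GRCm39 and, among tools, HTSeq 0.6.1, DESeq2, HISAT2 2.2.1 and cutadapt 1.9.1. Nothing on the strand setting or on multi-mapped reads is given in the sources used here, so paralogs, overlapping genes and antisense pairs are uncertain. The deposited FPKM values were checked against counts scaled by length and library, and lay within 1% for 99.997% of values at 500 or more counts. No columns of per-sample values were left unmapped.

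Counts were tested with edgeR 4.0.16 in R 4.3.3 (quasi-likelihood F test, TMM scaling, filterByExpr with a count minimum of 10, Benjamini-Hochberg adjustment over all genes tested, threshold 0.05). Each comparison was fitted on the 20 libraries of its own groups. Library totals were 14497205 to 19149227 counts at 10 mpk, 16031757 to 20391034 in sham and 15324404 to 18916591 in vehicle. FPKM served for levels and for overlap between groups. Alternatives used DESeq2 1.42.0 and limma 3.58.1, upper-quartile and quantile scaling, no filter, log2 FPKM with pseudocounts of 0.1, 0.5 and 1, sample weights, rank-sum tests, all 50 libraries in 1 fit, a replicate block and leaving out each library. On simulated counts for 10 mpk against sham over 16741 genes the fit recovered 63.3% of 1.5-fold and 90.8% of 2-fold changes with 12 false calls. For 10 mpk against vehicle it recovered 47% and 83.7%, with 7 false calls. The simulation changed far fewer genes than were called against sham and gave both groups the same spread, so its false calls do not carry over to these data.

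The members and the 39 gene lists were chosen with earlier results of these data known. The lists hold 549 genes, 548 of them in the table and 490 tested. The rule for named genes took the 12 largest rises and 12 largest falls called with a mean of 2 FPKM or more in 1 of the groups (leaving out predicted genes, pseudogenes and immunoglobulin or T cell receptor segments), up to 3 called members of each list by smallest p (or 2 by FPKM where none was called), every tested AhR target, and the 10 largest rises and 10 largest falls of vehicle under the same limits. Other members are named after their values were seen, to describe a list's count. A few genes that the rule took are not reported here. No pair of libraries agreed within sampling noise. The groups at higher doses were used only in the fit of all 50 libraries and in the fit of the 40 TNBS libraries.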

Additional observations from a re-analysis of the deposited data

Results flagged for a closer look

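Among the named genes, 278 combinations of a gene and a group of 10 were searched for a library far from the others, taken as a gap to its nearest neighbour that exceeds the 95% critical value of Dixon's test, and 29 were found; chance gives about 1 in 20. Values are FPKM. Replicate 5 at 10 mpk stood apart for 7 genes: it was high for Cxcl5 (57), Sgk1 (56.9), Apln (3.21) and the mitotic cyclin Ccnb2 (40.8), and low for the clock outputs Dbp (5.3) and Hlf (1.11) and the dendritic cell factor Zbtb46 (0.46). This is the library whose removal raised the count of genes called against vehicle to 402. Replicate 1 was high for the stromal genes Col6a3 (30.2), Col1a2 (180) and Pdgfrb (9.75) and for Adm (6.37), and low for the colonocyte gene Car4 (32.6). Replicate 7 was high for the pancreatic enzymes Cpb1 (20.8) and Ctrl (34.4). Replicate 8 was high for Il1b (93), replicate 6 for Gzma (24.6) and replicate 9 for Hspe1 (204), while replicate 3 was low for Il1rn (5.42) and replicate 10 for Ptgs1 (8.4).

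In sham, replicate 5 was high for the mast cell proteases Mcpt1 (21.6) and Mcpt2 (7.82), for Retnlg (6.99) and for Reg4 (1520). Sham replicate 3 was high for H2-Aa (38.2), Cd74 (309) and Kmo (1.37) and low for Igha (85.4). Sham replicate 4 was high for Clock (9.16), and sham replicate 7 was low for Cyp1a1 (0.04).

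The direct test separated 10 mpk from vehicle for 12 genes, given as log2 fold changes of 10 mpk minus vehicle. Clock genes among them were Arntl (-1.77), Npas2 (-1.46), Hlf (1.66) and Bhlhe41 (1.22). The others were Jun (1.19), Klf11 (0.69), Otud1 (0.75), Dnajb1 (0.57), Ephx1 (0.72), Gm26532 (1.29), Arg2 (-1.16) and Leo1 (-0.44).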

How the results depend on the processing

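Of 128 named genes called against sham, 105 kept their call under all 32 alternatives, 1 of them chosen after seeing the data, 23 lost it under at least 1, and 0 changed direction. Over the alternatives that keep all 20 libraries the number called against sham at 10 mpk ran from 5629 (rank-sum test) to 7073 (all 50 libraries). Leaving out 1 library gave 5269 to 7176 genes called and 724 to 1028 changed at least 2-fold at 10 mpk, 4640 to 5896 and 879 to 1160 in vehicle, and 2 to 402 and 2 to 101 for 10 mpk against vehicle. There the count was 402 without 10 mpk replicate 5, 79 without vehicle replicate 1, 20 without 10 mpk replicate 10 and 2 to 6 without any other library. The number changed at least 2-fold was 1559 without a filter on low counts, 369 on log2(FPKM + 0.5) and 258 on log2(FPKM + 1) at 10 mpk, and 1779, 534 and 416 in vehicle. Leaving out the pair low in distal Hox genes, an alternative chosen after seeing the data, gave 8048 genes called and 1257 changed at least 2-fold against sham, and 7 called against vehicle.

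The count against vehicle moved most: with DESeq2 329 genes were called and 101 at least 2-fold, with sample weights 224 higher and 133 lower (3.6e+02 in all, 54 of them at least 2-fold), with upper-quartile scaling 20 and 11, on log2(FPKM + 0.1) 3 and 2, on log2(FPKM + 0.5) 24 and 12, on log2(FPKM + 1) 28, with the rank-sum test 0 and 0 (2321 at an unadjusted p under 0.05), with all 50 libraries 1749 and 311, and with the 40 TNBS libraries 1042 and 230. The cause was not tested. With the replicate number as a block, 5685 genes were called at 10 mpk against sham, 4273 in vehicle, and 5 (4 at least 2-fold) between 10 mpk and vehicle. Replicate numbers were not taken as pairs: deviations of same-numbered libraries correlated at -0.214 to 0.238 between 10 mpk and sham, with 4 of 10 over 0.1. At this depth 490 of the 548 list genes in the table passed the filter on low counts.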
